A study of Mus musculus with 6 samples.

Results

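The genes described here are 38 genes of cholesterol and fatty acid synthesis, with their transcriptional regulators, in cultured mouse B cells. They were chosen by name, with earlier results of these data known. Their symbols were matched to the Ensembl identifiers of the deposited count table through GENCODE release M21. All 38 were found among the 54838 identifiers of the table, and all 38 passed the filter on low counts.

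RNA was sequenced from 6 libraries, 3 from cultures given the solvent DMSO and 3 from cultures given 1 µM Cpd10, a FOXO1 inhibitor per the labels (FOXO1 is a transcription factor). Both groups started from naive splenic B cells, sorted in 2 experiments and pooled from 10 male mice aged 3 months, 9 days after immunisation with sheep red blood cells. No genotype or strain was given in the labels. All cultures received interleukin 4 (80 ng/ml) and anti-CD40 (5 µg/ml) for 5 days, and DMSO or Cpd10 was present for 48 hours from day 3. Replicates are lettered A, B and C in each group, and the labels do not say what the letters stand for.

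Cells make cholesterol from acetyl-CoA through mevalonate and squalene, and saturated fatty acids from acetyl-CoA through malonyl-CoA. Both routes are driven by the sterol regulatory element-binding proteins (SREBPs), membrane-bound transcription factors that are released when sterols are scarce. SREBP-2 mainly drives the sterol genes and SREBP-1 the fatty acid genes, and INSIG proteins hold both precursors in the endoplasmic reticulum when sterols are plentiful. Dividing lymphocytes use these routes to build membranes. FOXO factors act downstream of the kinases PI3K and AKT, which also act on SREBP-1 in many cell types, and the comparison asks which transcripts depend on FOXO1 activity in B cells already activated.

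Libraries held 36873204 to 44859930 counts, and 3 counts, the limit that a count of 0 allows, corresponded to 0.0661 to 0.0826 CPM (counts scaled to library size). That limit covers counting error only and takes counts as independent, which was not tested. Low counts were often even, such as 14, 20, 18, 0, 36 and 4 for Itgam in DMSO A to C and Cpd10 A to C. The libraries fell into 2 sets of 3 that crossed the groups. Set 1 here means DMSO A, DMSO C and Cpd10 A. Set 2 means DMSO B with Cpd10 B and C. The split is not in the labels and was read from the counts with the 38 genes left out: 9 genes were at 3 counts or fewer in all of one set and at 50 or more in all of the other, against 1 gene for the split by treatment and 0 for each of the other 8 splits. The 84 ribosomal protein genes took 6.76% to 7.28% of the counts in set 1 and 11.0% to 12.2% in set 2. Results are therefore given without the set, the fit chosen first, and, where the call differs, with the set as a second term, which was added after seeing the data.

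The B cell label was met by its markers. The 6 B cell markers summed to 4063 to 5249 CPM, and all 6 were detected. The 6 T cell markers summed to 0.617 to 1.71 CPM and the 4 neutrophil markers to at most 0.0487 CPM, with 3 of the 4 at 0. The 4 adipocyte markers, of a tissue with strong lipid synthesis, summed to 2.26 to 4.67 CPM in DMSO and 0.213 to 1.42 CPM in Cpd10. Adipoq gave nearly all of this and Lep was at 0. The 7 myeloid markers summed to 28.1 to 37.2 CPM in DMSO and 18.2 to 21.9 CPM in Cpd10. Adgre1 and Mpeg1 gave nearly all of this, C1qa was at 0, and Lyz2, Csf1r and Cd14 held 0 to 9 counts in a library. The part of other cell types in the results below was not tested. The 4 NK and 4 erythroid markers summed to at most 4.14 and 0.532 CPM. The 7 fibroblast and endothelial markers summed to 11.9 to 20.7 CPM in DMSO and 4.93 to 10.1 CPM in Cpd10. Pecam1 gave most of this, at 10.2, 10.6 and 19.5 CPM in DMSO and 4.10, 5.83 and 4.71 CPM in Cpd10. Pdgfrb averaged 0.123 CPM in set 1 and 3.76 CPM in set 2, and Col1a1, Col1a2, Col3a1 and Kdr had few or no counts. The 5 plasma cell markers summed to 4359 CPM in DMSO C and to 2018 to 3086 CPM in the other libraries. Within this sum, Sdc1, Prdm1 and Jchain were each higher in all set 1 libraries than in all set 2 libraries. Sdc1 was at 37.7 to 87.7 CPM in set 1 and 6.87 to 10.7 CPM in set 2. Jchain was at 730 to 2057 CPM in set 1 and 224 to 407 CPM in set 2. For Irf4 and Xbp1 the sets overlapped. The part of plasma cells in the set split was not tested.

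A pair of sequence sets carries what follows. The first shows how alike the transcripts of Scd1 and Scd2 are, since these stearoyl-CoA desaturases had the smallest p-values among the 38 and reads can be shared between close copies. Their coding sequences (GENCODE M21, GRCm38) are 1065 and 1074 bases long, are identical at 89.6% of aligned positions and differ at 112. The stretch of 120 bases with the most differences holds 32 of them, written in capitals below, at coding bases 75 to 194 of Scd1 and 84 to 203 of Scd2.
Scd1: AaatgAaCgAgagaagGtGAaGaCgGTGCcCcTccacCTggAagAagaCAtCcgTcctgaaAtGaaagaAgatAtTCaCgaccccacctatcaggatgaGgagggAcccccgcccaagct
Scd2: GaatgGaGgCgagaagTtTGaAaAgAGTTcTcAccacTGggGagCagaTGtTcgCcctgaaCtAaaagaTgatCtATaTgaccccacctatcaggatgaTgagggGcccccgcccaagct
The longest stretch with no difference is 147 bases, at coding bases 523 to 669 of Scd1 and 532 to 678 of Scd2.
Both: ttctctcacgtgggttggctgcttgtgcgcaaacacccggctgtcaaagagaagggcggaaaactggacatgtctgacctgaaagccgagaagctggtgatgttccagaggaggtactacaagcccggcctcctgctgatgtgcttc
Reads within that run cannot be assigned to either gene by their own sequence, whereas reads over the first stretch can. The encoded proteins, of 355 and 358 residues, are identical at 86.6% of positions.

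The second set shows the promoters that held the sites searched for SREBP and FOXO. RefSeq promoter windows (GRCm38.p6, 250 bases before to 50 after a start site) were found for 31 of the 38 genes, as 38 windows. Stard4, Fdps, Fdft1, Sqle, Scd1, Scd2 and Fads1 were not in the table. On either strand, the SREBP site TCACNCCAC was in 1 of the 38 windows (2.63%) and in 1.24% of all 32851 windows. The boxes that often accompany it were common: CCAAT, read by NF-Y, was in 25 windows (65.8%, against 37.4% of all), and GGGCGG, read by SP1, in 28 (73.7%, against 35.7%). The FOXO site GTAAACA was in 2 windows (5.26%, against 3.65% of all), those of Aacs and Elovl6, and its longer form GTAAACAA, which contains it, in 1 (2.63%, against 1.23%). The E-box CACGTG, also searched, was in 5 windows (13.2%, against 7.15% of all), those of Dhcr7, Elovl5, Hsd17b7, Insig1 and Sc5d. A match describes these letters and not a bound site. A window without a match lacks only the letters searched, so it is not shown to lack a site. The 250 bases before the start are given below for the gene with the SREBP site (chr13:119690101-119690350, plus strand, site beginning 137 bases before the start) and the gene with the long FOXO site (chr3:129532136-129532385, plus strand, site beginning 123 bases before the start), with the sites in capitals.
Hmgcs1: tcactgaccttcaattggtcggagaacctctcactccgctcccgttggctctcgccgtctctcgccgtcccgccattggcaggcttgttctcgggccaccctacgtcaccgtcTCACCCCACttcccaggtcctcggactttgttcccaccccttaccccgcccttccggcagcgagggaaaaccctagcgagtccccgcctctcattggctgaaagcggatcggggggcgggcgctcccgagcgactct
Elovl6: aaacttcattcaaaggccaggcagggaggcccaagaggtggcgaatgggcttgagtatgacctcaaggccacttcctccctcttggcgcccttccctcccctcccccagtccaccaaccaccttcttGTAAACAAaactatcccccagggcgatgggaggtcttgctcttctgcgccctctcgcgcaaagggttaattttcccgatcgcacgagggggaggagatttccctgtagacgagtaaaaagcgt

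Levels of the 38 genes are compared between genes per kilobase of exon (RPKM), and within a gene as CPM. In DMSO the median of the 38 was 21.5 RPKM, against 4.51 RPKM for all 15136 genes tested. The highest was Scd2 at 152 ± 26.2 RPKM (mean ± SD, n = 3 here and below), followed by Acly, the ATP citrate lyase that makes cytosolic acetyl-CoA, at 81.9 ± 6.74 RPKM. Srebf2, which encodes SREBP-2, was at 75.1 ± 1.88 RPKM, Scd1 at 72.0 ± 3.44 RPKM and Fasn, the fatty acid synthase, at 59.1 ± 3.22 RPKM. Insig1 (58.0 ± 3.64 RPKM), Cyp51 (55.5 ± 4.88 RPKM) and Mvd (52.4 ± 6.78 RPKM) came next. The DMSO libraries of Scd2 lay above those of every other gene in this order, those of Acly, Srebf2 and Scd1 overlapped from one gene to the next, and those of Fasn and Insig1 overlapped. At the low end, Acss2 was at 0.889 ± 0.0696 RPKM and Me1 at 0.0974 ± 0.0365 RPKM.

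**Figure D1:**
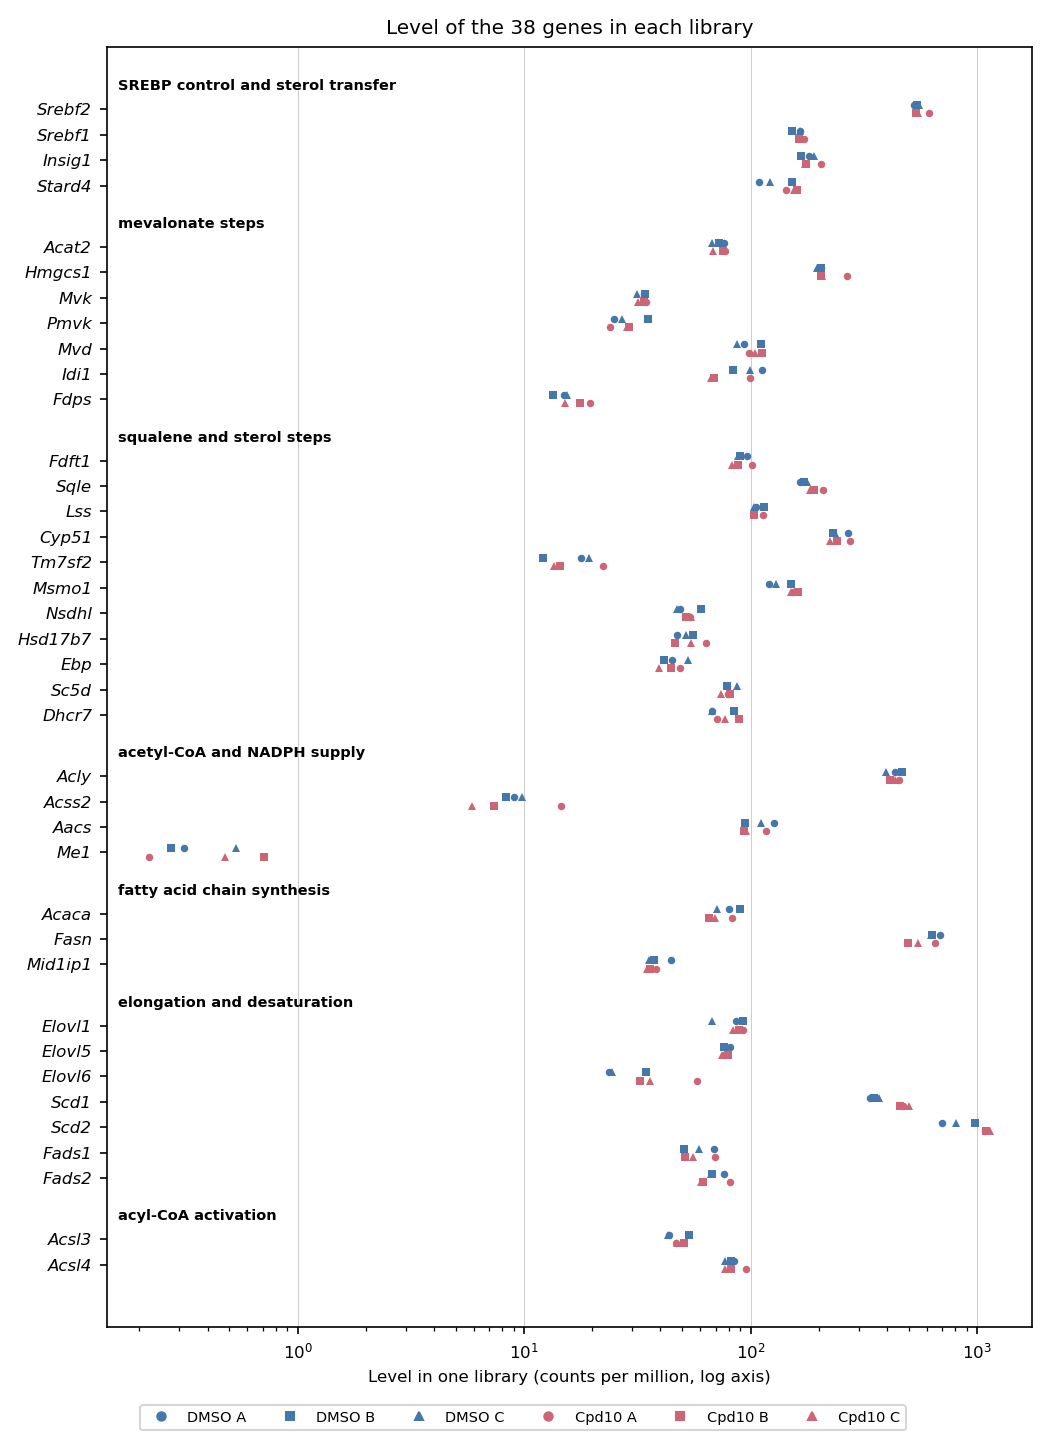
Level of each of the 38 genes in each library, in CPM on a log axis, grouped by role; blue marks are DMSO libraries, red marks Cpd10 libraries, and the mark shape gives the replicate letter. For most genes the 6 marks lie close together, while Scd1 and Scd2 show the 3 Cpd10 marks to the right of the 3 DMSO marks.

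None of the 38 genes passed the test between Cpd10 and DMSO (edgeR's quasi-likelihood test, Benjamini-Hochberg adjusted p under 0.05 over the 15136 genes tested), where 0.370% of all genes tested were called (0.317% higher and 0.0529% lower in Cpd10). The smallest adjusted p was 0.173, for Scd1. Of the 38, 3 (7.89%) had an unadjusted p under 0.05, against 8.39% of all genes tested, and all 3 had higher means in Cpd10: Scd1, Scd2 and Elovl6. DESeq2, run as an alternative, called 1 of the 38 (Scd1), where 2.00% of all genes were called. The fit with the set term called 1 (Scd1), where 3.96% of all genes were called. A count of 1 in 38 is near both backgrounds. In these bulk libraries, a change in the share of cells of one type and a change in RNA per cell cannot be told apart.

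The fit bounded most of the 38 differences between these libraries closely. Its intervals reflect library-to-library spread alone, which may be technical. The 95% interval of the fold change lay within 2-fold in either direction for 36 of the 38 (94.7%), against 60.4% of all genes tested, and within 1.5-fold for 30 (78.9%, against 41.5%). The exceptions to the 2-fold bound were Me1 and Elovl6. The median standard error (SE) of the log2 fold change was 0.122 for the 38 and 0.213 for all genes, beside the higher levels of the 38 given above. Point estimates were within 10% of no change for 26 of the 38. The median log2 fold change (Cpd10 minus DMSO, as throughout) was 0.035, against -0.0012 over all genes, with 25 of the 38 above 0 and 13 below.

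**Figure D2:**
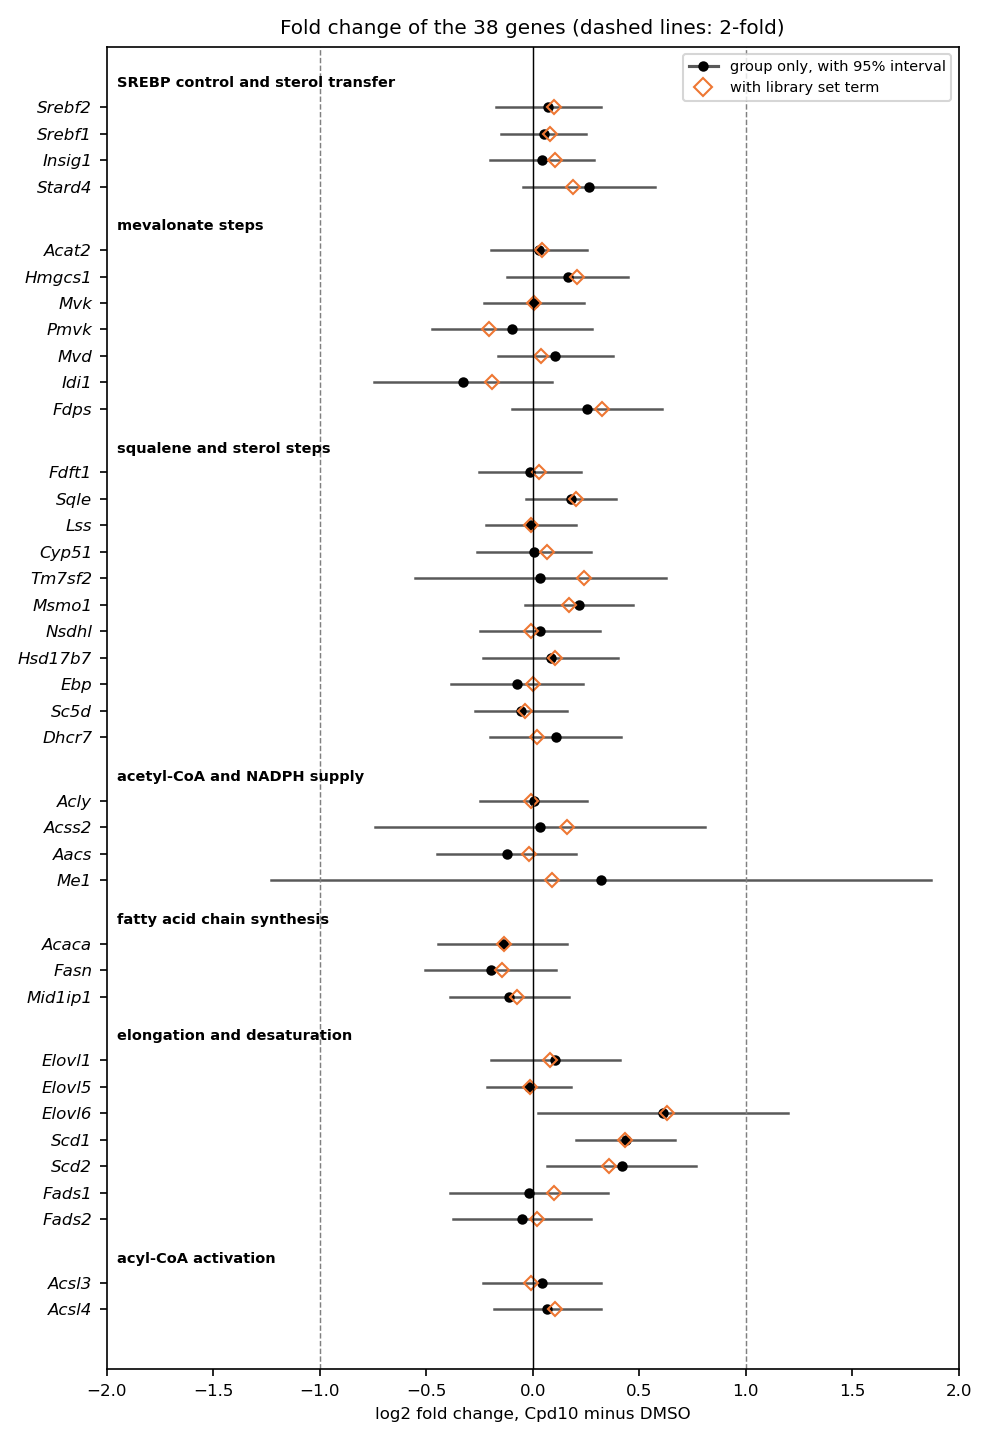
Log2 fold change of each of the 38 genes, Cpd10 minus DMSO: black points and lines give the estimate and 95% interval of the fit with the treatment alone, open diamonds the estimate with the library set as a second term, and dashed lines mark 2-fold. Only the intervals of Elovl6, Scd1 and Scd2 lie clear of 0, and those of Elovl6 and Me1 pass a 2-fold line.

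Among the genes that control the pathway, Srebf2 was at 526, 541 and 553 CPM in DMSO A, B and C and at 614, 540.0 and 549 CPM in Cpd10 A, B and C (log2 fold change 0.07, SE 0.11, adjusted p = 0.913 by edgeR). Cpd10 A was the highest library and the other 5 lay close together. Srebf1, which encodes SREBP-1, was at 165, 153 and 165 CPM in DMSO and 173, 163 and 164 CPM in Cpd10 (log2 fold change 0.05). Insig1, the sterol-regulated retention protein and itself an SREBP target, was at 180.3, 168 and 190.2 CPM in DMSO and 205, 176 and 174 CPM in Cpd10 (log2 fold change 0.04, 95% interval -0.20 to 0.29). The groups overlapped for all of these genes. Stard4, a carrier that moves cholesterol between membranes, was at 108, 152 and 122 CPM in DMSO and 144, 159.9 and 155 CPM in Cpd10 (log2 fold change 0.26, adjusted p = 0.690 by edgeR). Its DMSO B library lay inside the Cpd10 range, and its 3 set 2 libraries lay above its 3 set 1 libraries.

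The 7 genes of the mevalonate steps gave 0 calls, and 5 of the 7 had a log2 fold change above 0. The 4 with the smallest p were Idi1, Fdps, Hmgcs1 and Mvd. Hmgcs1, the HMG-CoA synthase whose promoter held the SREBP site, was at 204, 205 and 197 CPM in DMSO and 267, 204 and 208 CPM in Cpd10 (log2 fold change 0.16, SE 0.12, adjusted p = 0.824 by edgeR). The higher mean in Cpd10 came from the A library. Mvd, the decarboxylase that makes isopentenyl diphosphate, was at 93.2, 112 and 87.5 CPM in DMSO and 98.4, 112 and 104 CPM in Cpd10 (log2 fold change 0.11). Idi1, which isomerises that product, was at 112, 83.7 and 99.8 CPM in DMSO and 99.6, 69.3 and 67.0 CPM in Cpd10 (log2 fold change -0.33, SE 0.18, adjusted p = 0.727 by edgeR). This was the most negative estimate among the 38, and its 3 set 1 libraries lay above its 3 set 2 libraries in both groups.

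Fdps, the farnesyl diphosphate synthase, was at 15.0, 13.4 and 15.4 CPM in DMSO and 19.5, 17.7 and 15.1 CPM in Cpd10 (log2 fold change 0.26, adjusted p = 0.748 by edgeR). Its level is uncertain. In the transcripts of GENCODE M21, 4 processed pseudogenes elsewhere in the genome match it at 96.1% to 98.9% over at least 605 bases, and Gm43738 shares exons with it. Those 4 pseudogenes held 4 to 166 counts over the 6 libraries together, beside 3944 for Fdps. The other genes of these steps were Acat2, Mvk and Pmvk, which run the first thiolase step and the kinase steps; their log2 fold changes were 0.03, 0.01 and -0.10.

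The 11 genes that turn farnesyl diphosphate into cholesterol gave 0 calls as well, with 7 log2 fold changes above 0 and a range of -0.07 to 0.22. Sqle, the squalene epoxidase, a slow and highly regulated step, was at 166, 172 and 177 CPM in DMSO and 209, 189.8 and 184 CPM in Cpd10. The groups did not overlap (fold 1.13, 95% interval 0.977 to 1.31, adjusted p = 0.693 by edgeR). Groups did not overlap for 3 of the 38 genes (7.89%), Sqle, Scd1 and Scd2, and for 14.6% of all genes tested. Msmo1, a methyl sterol oxidase, was at 120.4, 151 and 129 CPM in DMSO and 154, 162 and 150.3 CPM in Cpd10 (log2 fold change 0.22, adjusted p = 0.688 by edgeR). Only DMSO B reached the Cpd10 range.

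Dhcr7, which performs the last reduction on one branch of the route, was at 67.5, 84.7 and 67.9 CPM in DMSO and 71.1, 88.6 and 77.5 CPM in Cpd10 (log2 fold change 0.11). Hsd17b7, a 3-keto sterol reductase, was at 47.4, 55.7 and 51.8 CPM in DMSO and 63.2, 46.4 and 54.5 CPM in Cpd10 (log2 fold change 0.08). The groups overlapped for both. The lanosterol synthase Lss (-0.01) and the lanosterol demethylase Cyp51 (0.01) had log2 fold changes next to 0, as did the squalene synthase Fdft1 (-0.01). Fdft1 overlaps 774 exonic bases of the cathepsin gene Ctsb on the other strand, and no source used here says whether reads were counted by strand. Summed over the 18 genes from Acat2 to Dhcr7, the cholesterol steps stood at 1623, 1647 and 1584 CPM in DMSO A, B and C and at 1809.9, 1653 and 1579.8 CPM in Cpd10 A, B and C. Cpd10 A was the highest, and the other 2 Cpd10 libraries lay just outside the DMSO range, B above it and C below.

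The genes that supply acetyl-CoA and NADPH showed no call. Acly was at 436, 466 and 395 CPM in DMSO and 451, 413 and 436 CPM in Cpd10 (fold 1.00, 95% interval 0.843 to 1.19). Aacs, which activates acetoacetate in the cytosol and whose promoter held the short FOXO site, was at 127, 94.9 and 111 CPM in DMSO and 117, 93.1 and 95.6 CPM in Cpd10 (log2 fold change -0.12, adjusted p = 0.892 by edgeR). Both genes showed overlapping groups. Acss2, the acetyl-CoA synthetase that uses acetate, was at 9.02, 8.34 and 9.76 CPM in DMSO and 14.5, 7.38 and 5.88 CPM in Cpd10, so that its 3 Cpd10 libraries lay on both sides of DMSO. Me1, the cytosolic malic enzyme that makes NADPH, was at 0.313, 0.275 and 0.535 CPM in DMSO and 0.220, 0.710 and 0.479 CPM in Cpd10. Its fold change had a 95% interval of 0.426 to 3.65, so a difference in Me1 was not detectable at this depth.

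All 3 genes of fatty acid chain synthesis had means below DMSO in Cpd10, and none passed the test. Fasn was at 688, 631 and 623 CPM in DMSO and 649, 497 and 547 CPM in Cpd10 (log2 fold change -0.20, SE 0.13, adjusted p = 0.782 by edgeR). Cpd10 B and C were the lowest 2 libraries, and Cpd10 A lay inside the DMSO range. Acaca, the acetyl-CoA carboxylase that makes malonyl-CoA, was at 80.1, 89.5 and 71.0 CPM in DMSO and 82.9, 65.6 and 69.6 CPM in Cpd10 (log2 fold change -0.14). Mid1ip1, an activator of that carboxylase, was at 44.5, 37.3 and 35.7 CPM in DMSO and 38.2, 35.8 and 34.9 CPM in Cpd10 (log2 fold change -0.11). The groups overlapped for all 3 genes. A processed pseudogene, Gm5182, matches Acaca at 99.2% over 6118 bases and held 906 counts, beside 18712 for Acaca.

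The lowest p-values of the 38 were all among the 7 genes of chain elongation and desaturation. Scd1 (ENSMUSG00000037071, chr19:44394455-44407879, minus strand), which puts the first double bond into stearate and palmitate, was at 335, 352 and 369 CPM in DMSO and 471, 457 and 502 CPM in Cpd10. Every Cpd10 library lay above every DMSO library. The fold was 1.35 (95% interval 1.15 to 1.59; log2 fold change 0.44, SE 0.10), with adjusted p = 0.173 by edgeR, so Scd1 did not pass the fixed threshold. It passed by DESeq2 (adjusted p = 0.0451) and in the edgeR fit with the set term (log2 fold change 0.43, adjusted p = 0.0107). In that fit the adjusted p of Scd1 was 0.0961 without DMSO B, 0.169 without Cpd10 A and 0.0809 without Cpd10 C, and 0.00514 to 0.0300 without DMSO A, DMSO C or Cpd10 B, with 2 residual degrees of freedom in each case. Without DMSO B or without Cpd10 A, 1 of the sets holds a single group, so the treatment estimate comes from the other set alone, with 1 library in 1 arm. The estimate itself was 0.40 to 0.48 on the log2 scale when each library was left out of the fit with the treatment alone.

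Scd2 (ENSMUSG00000025203, chr19:44293674-44306864, plus strand), the second desaturase and a neighbour of Scd1 on chromosome 19, was at 699, 983 and 809 CPM in DMSO and 1087, 1098 and 1140.1 CPM in Cpd10. The Cpd10 libraries again lay above all DMSO libraries. The Cpd10 libraries were closer to each other (SD 28.0 CPM) than the DMSO libraries (SD 143 CPM). The fold was 1.33 (95% interval 1.05 to 1.70), with adjusted p = 0.495 by edgeR, and with the set term the adjusted p was 0.0605. Without Cpd10 A, the fit with the set term gave a log2 fold change of 0.20 for Scd2 (adjusted p = 0.762), against 0.36 with all libraries, but this sets Cpd10 B and C against the lone library DMSO B. Without DMSO C it passed in that fit (adjusted p = 0.0466). Reads that fall in identical stretches such as the 147 bases shown above could be placed on either desaturase or dropped, so the split between Scd1 and Scd2 is uncertain, and no source used here says how such reads were counted.

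Elovl6 (ENSMUSG00000041220, chr3:129532355-129638495, plus strand), the elongase that extends palmitate to stearate and whose promoter held the long FOXO site, was at 23.7, 34.5 and 24.4 CPM in DMSO and 57.7, 32.6 and 35.8 CPM in Cpd10. Cpd10 A stood far above the other 5 libraries, and Cpd10 B lay below DMSO B. The fold was 1.53 (95% interval 1.02 to 2.30), with adjusted p = 0.572 by edgeR. Without Cpd10 A the log2 fold change was 0.32, against 0.61 with all libraries, and with the set term, where DMSO B is then the lone control, it was 0.0014. Without DMSO B the fit with the set term called Elovl6 (log2 fold change 1.26, adjusted p = 0.00185), an estimate that rests on the lone library Cpd10 A against DMSO A and C. The estimate for Elovl6 therefore rested on which libraries were kept.

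**Figure D3:**
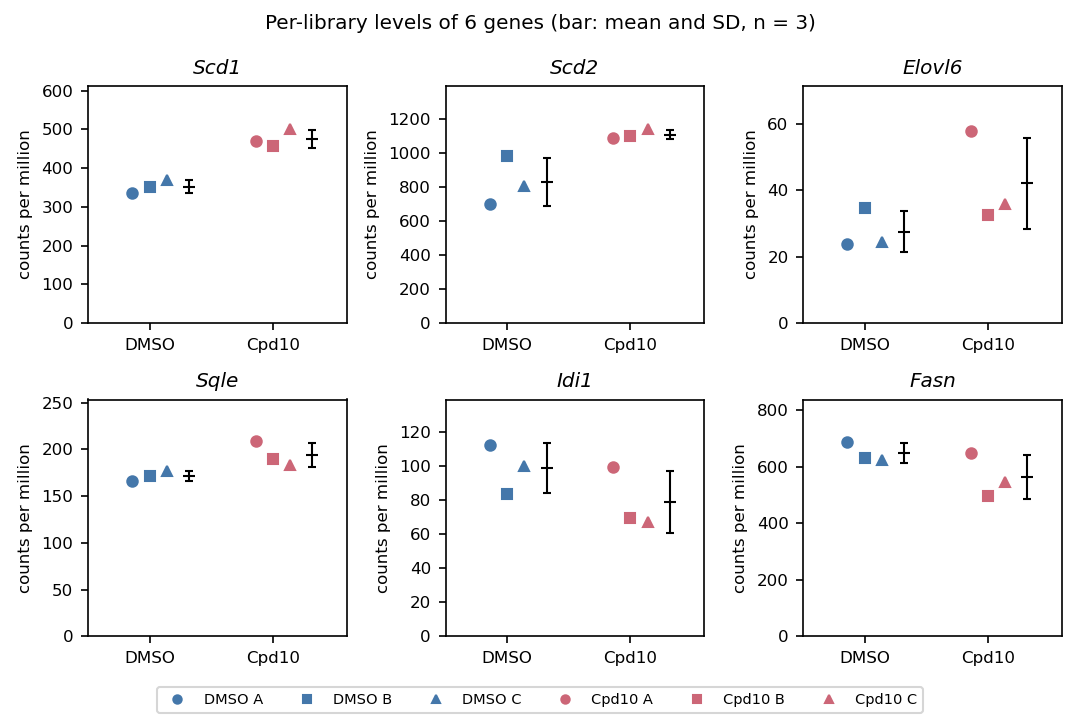
Levels of 6 genes in each library, in CPM on axes that start at 0; blue marks are DMSO and red marks Cpd10 libraries, the mark shape gives the replicate letter, and the bar beside each group is the mean with its SD (n = 3). Scd1, Scd2 and Sqle show no overlap between groups, Elovl6 has 1 high Cpd10 library at 57.7, and the groups of Idi1 and Fasn overlap.

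The other elongases and desaturases were close to DMSO. Elovl1, which elongates very long saturated chains, was at 86.4, 92.4 and 67.6 CPM in DMSO and 92.3, 89.3 and 83.4 CPM in Cpd10 (log2 fold change 0.11). Elovl5, which elongates polyunsaturated chains, had a log2 fold change of -0.02 (95% interval -0.22 to 0.18). Fads1 and Fads2, the delta-5 and delta-6 desaturases of polyunsaturated fatty acid synthesis, had log2 fold changes of -0.02 and -0.05. Summed over the 7 genes, elongation and desaturation stood at 1370.4, 1656 and 1472 CPM in DMSO and 1935, 1870.2 and 1952 CPM in Cpd10, of which Scd1 and Scd2 make up most. Summed over all 38 genes the levels were 5485, 5779 and 5453 CPM in DMSO and 6376, 5807 and 5888 CPM in Cpd10. Without Scd1 and Scd2 they were 4451, 4444 and 4275 CPM in DMSO and 4819, 4251 and 4246 CPM in Cpd10, so 2 of the 3 Cpd10 libraries then lay below all DMSO libraries.

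The acyl-CoA synthetases that activate long chains were also near DMSO. Acsl3, found on lipid droplets, was at 43.8, 53.6 and 43.1 CPM in DMSO and 46.8, 50.6 and 47.4 CPM in Cpd10 (log2 fold change 0.04). Acsl4, which prefers arachidonate and related chains, was at 84.3, 81.8 and 77.0 CPM in DMSO and 95.6, 82.1 and 77.2 CPM in Cpd10 (log2 fold change 0.07). The groups overlapped for both.

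Levels of these genes followed the library sets about as often as other genes did. The 3 libraries of one set lay entirely above those of the other for 13 of the 38 genes (34.2%), against 35.9% of all genes tested. Set 1 was the higher for 8 of the 13, which is 21.1% of the 38, against 17.1% of all genes tested. Set 2 was the higher for 5 (13.2%, against 18.8%). The widest ratios of set 1 to set 2 were 1.54 for Acss2, 1.48 for the sterol reductase gene Tm7sf2 and 1.42 for Idi1, followed by 1.26 for Fads1 and 1.25 for Aacs. Srebf1, Insig1 and Ebp were the other genes higher in set 1, and Stard4, Pmvk, Mvd, Dhcr7 and Acsl3 those higher in set 2. Genes of the same route thus lay on opposite sides: Mvd was higher in set 2 and Idi1, the next step, in set 1. Tm7sf2 was at 17.8, 12.1 and 19.2 CPM in DMSO and 22.3, 14.4 and 13.6 CPM in Cpd10, and it shares 532 exonic bases with Vps51, so its level is uncertain.

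One library, Cpd10 A, was the highest of the 6 for 17 of the 38 genes (44.7%), against 19.7% of all genes tested. This was a set 1 library, and DMSO C of the same set was the highest for 2 of the 38. Without Cpd10 A the median log2 fold change of the 38 was -0.00850, against 0.035 with it. Over the 36 of the 38 genes whose mean reached 10 CPM, the median ratio of the highest library to the lowest was 1.33, against 1.38 for all 8883 genes at that level.

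**Figure D4:**
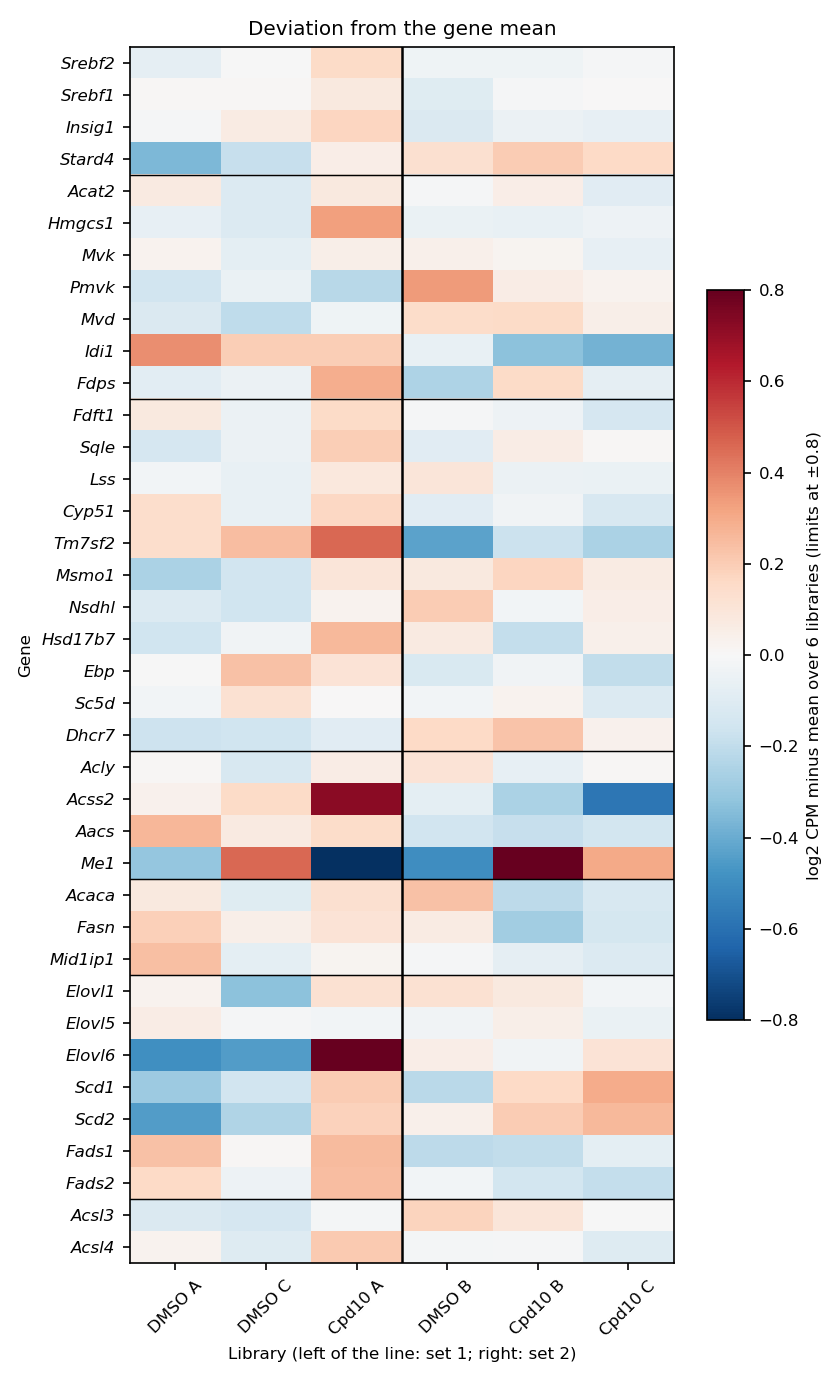
Log2 CPM of each of the 38 genes in each library minus the gene's mean over the 6 libraries, with red above and blue below the mean and colours cut at 0.8; libraries of set 1 stand left of the vertical line and set 2 right, and horizontal lines separate the roles. Cpd10 A is red for many genes, Idi1 and Tm7sf2 are red left and blue right of the line, and Scd1 and Scd2 are red in the 3 Cpd10 libraries.

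In several enzyme families these B cells held some members at low levels only. The fatty acid desaturase genes Fads1, Fads2 and Fads3 were all detected in DMSO, at 12.4, 21.3 and 1.97 RPKM. Beside Scd1 and Scd2, the desaturase genes Scd3 and Scd4 were at 0.0921 ± 0.0727 and 0.0904 ± 0.0253 RPKM in DMSO. Over all 6 libraries, Scd3 had 3 to 24 counts in a library and Scd4 had 7 to 18. Of the elongases, Elovl1 (30.1 ± 4.75 RPKM) and Elovl5 (22.1 ± 0.696 RPKM) were the highest in DMSO, and Elovl6 was at 4.28 ± 0.943 RPKM. Elovl4 (0.140 ± 0.0727 RPKM) and Elovl7 (0.207 ± 0.0246 RPKM) were low, and Elovl2 and Elovl3 had 0 counts in all DMSO libraries. In Cpd10, Elovl3 had 12 counts in A and Elovl2 had 12 in B and 2 in C. Acaca (4.70 ± 0.544 RPKM) stood above the mitochondrial isoform gene Acacb (0.173 ± 0.0824 RPKM). Srebf2 stood above Srebf1 (28.6 ± 1.21 RPKM) in every library. Among acyl-CoA synthetases Acsl5 was the highest at 46.3 ± 2.74 RPKM, above Acsl4 (15.0 ± 0.683 RPKM) and Acsl3 (10.7 ± 1.34 RPKM). The genes outside the 38 in this paragraph were chosen after their values were seen.

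**Figure D5:**
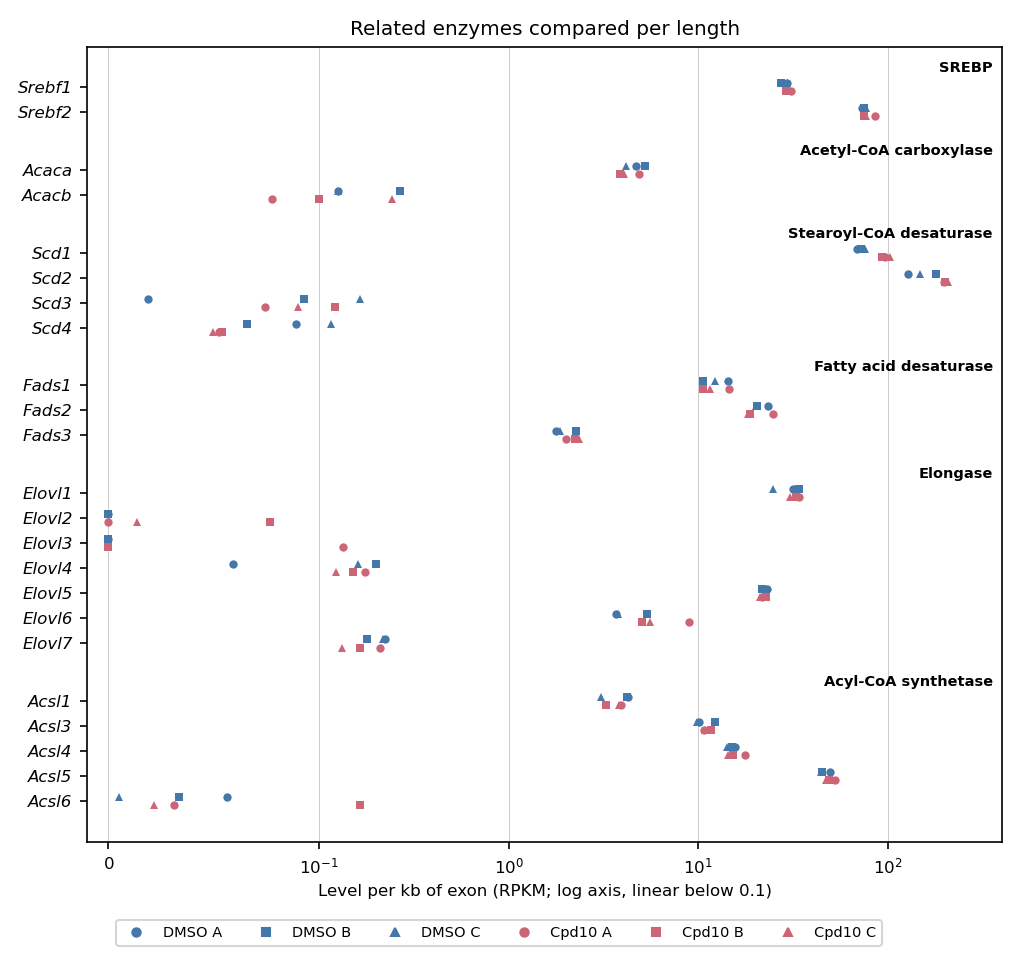
Level per kilobase of exon (RPKM, log axis, linear below 0.1) of the members of 6 families of regulators and enzymes in each library; blue marks are DMSO, red marks Cpd10, and the mark shape gives the replicate letter. Each family has members above 1 RPKM in all 6 libraries, while Acacb, Scd3, Scd4, Elovl2, Elovl3, Elovl4, Elovl7 and Acsl6 lie below 1 in all 6.

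The other genes of lipid metabolism were read from 7 lists of 103 genes in all, of which 92 were tested. By edgeR's quasi-likelihood test 0 of the 92 were called (0.370% of all genes tested), and 7 (7.61%) had an unadjusted p under 0.05, against 8.39%. DESeq2 called 1 of 97 (Mgll), where it called 2.00% of all genes, and the fit with the set term 4 of 92 (Lpcat3, Lipa, Abca1 and Agpat4), where it called 3.96%. Both counts are near the background. The groups did not overlap for 10 of the 92 (7 higher and 3 lower in Cpd10), and for 14.6% of all genes tested. In the list of other cholesterol synthesis, 8 genes were tested and 0 called, and their median log2 fold change was 0.06. Erg28, a scaffold of the sterol demethylation enzymes, averaged 67.6 ± 3.73 CPM in the DMSO libraries and 78.0 ± 6.01 CPM with Cpd10 (adjusted p = 0.669 by edgeR).

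Of the 7 other genes of SREBP control, 5 had log2 fold changes below 0. Scap, the sterol sensor that escorts SREBPs to the Golgi, was at 90.2, 77.5 and 78.2 CPM in DMSO and 74.6, 72.9 and 68.0 CPM in Cpd10, with no overlap between the groups (log2 fold change -0.19, adjusted p = 0.711 by edgeR). The ubiquitin ligase gene Rnf139 was at 23.4 ± 0.941 and 25.7 ± 1.52 CPM. Of the 10 tested genes of sterol uptake and storage, 7 were below 0. Lipa, the lysosomal lipase that frees cholesterol from its esters, was at 41.1, 53.0 and 53.4 CPM in DMSO and 30.6, 41.5 and 38.9 CPM in Cpd10 (log2 fold change -0.41, adjusted p = 0.535 by edgeR, and -0.51 with an adjusted p of 0.0311 with the set term).

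The 9 genes of the LXR list, the sterol-sensing nuclear receptors and their targets for cholesterol export, did not share a direction: 4 were above 0 and 5 below. Abca1, the exporter that loads cholesterol onto lipoproteins, was at 4.93, 2.09 and 7.59 CPM in DMSO and 2.51, 0.862 and 1.01 CPM in Cpd10, where Cpd10 A lay above DMSO B (log2 fold change -1.73, SE 0.59, adjusted p = 0.457 by edgeR). With the set term the log2 fold change was -1.24 (adjusted p = 0.0433). Macrophages also express Abca1. The myeloid marker Mpeg1 was at 13.8, 7.05 and 16.2 CPM in DMSO and 9.47, 6.44 and 6.97 CPM in Cpd10, the same library order as Abca1. The plasma cell marker Prdm1 had that order too. It was at 37.2, 30.4 and 74.3 CPM in DMSO and 35.2, 20.4 and 21.0 CPM in Cpd10. Abca1, Mpeg1 and Prdm1 were each higher in all set 1 libraries than in all set 2 libraries. The myeloid markers Lyz2, Csf1r, Cd14 and C1qa had few or no counts. Adgre1, at 13.9, 21.1 and 20.5 CPM in DMSO and 8.77, 14.2 and 13.0 CPM in Cpd10, had another order. The part of myeloid cells, plasma cells or the set split in the Abca1 difference was not tested. Lpcat3, which puts polyunsaturated chains into phospholipids, was at 49.5, 59.9 and 48.2 CPM in DMSO and 69.7, 68.4 and 71.7 CPM in Cpd10, with no overlap (log2 fold change 0.41, 95% interval 0.15 to 0.67, adjusted p = 0.289 by edgeR, and 0.37 with an adjusted p of 0.0433 with the set term).

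The list of other fatty acid synthesis held 16 tested genes, with 0 calls and a median log2 fold change of 0.03. Tecr, the reductase that completes each elongation cycle, was at 176, 179 and 176 CPM in DMSO and 201, 203 and 194 CPM in Cpd10, with no overlap (log2 fold change 0.17, SE 0.08, adjusted p = 0.643 by edgeR). Acsl6 was at 0.313 ± 0.256 and 0.715 ± 0.788 CPM, with 1 Cpd10 library at 1.62 CPM.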

How the data were processed

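The authors deposited raw read counts per gene (whole numbers) for the 6 libraries in 1 table. Per the labels' protocols, libraries were poly A selected and directional. Per the submitters' processing notes, STAR 2.7.10a, featureCounts 2.0.6 and DESeq2 were used with GRCm38 (mm10). Counting options, including strand, are not given in the sources used here. Symbols, exon lengths and GRCm38 coordinates came from GENCODE release M21, which held 54809 of the 54838 identifiers.

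Counts were fitted on the whole table with edgeR 4.0.16 in R 4.3.3 (TMM, filterByExpr, robust quasi-likelihood F test, treatment only; 15136 genes tested). A gene was called where its p, adjusted over all of them by Benjamini-Hochberg, was under 0.05. The SE is the absolute log2 fold change over the root of F, and 95% intervals use the fit's t distribution. CPM use TMM-scaled library sizes, and RPKM divide them by the kilobases of merged exons. The procedure was also run on simulated counts that held no difference between library sets, so that run does not cover the set split. Close copies were found with blastn 2.17.0 (at least 95% identity over 500 bases).

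The 38 genes, the related lists and the marker lists were chosen with earlier results of these data known, so no list was given a test of its own. Genes called, up to 4 genes per role with the smallest p and the 5 highest in DMSO per length were to be named with each library's value, and up to 2 genes per related list; some that this rule would name are not reported here. The library set term was added after seeing the data and its p-values are exploratory, since it was read from the same counts. Alternatives were RLE size factors, no filter, DESeq2 1.42.0, limma-voom (limma 3.58.1), the replicate letter as a block and each library left out.

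Replicate libraries differed beyond sampling noise (chi-square per degree of freedom 11.5 to 157), so no pair was merged as a single library; this does not show that they came from separate cultures. Cells were pooled before culture and the labels name no separate cultures. The p-values and intervals therefore reflect library-to-library spread alone, and that spread may be technical.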

Additional observations from a re-analysis of the deposited data

How the results depend on the processing

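Of the 38 genes, 0 were called with RLE size factors, without the filter, by limma-voom and without each library (0 to 0), 1 by DESeq2 (Scd1, higher) and 1 with the library set term (Scd1, higher). Of the related genes, 0 were called in the same fits (0 to 0 without each library), 1 by DESeq2 (Mgll, higher, adjusted p = 0.00116) and 4 with the set term (1 higher, 3 lower). The cause was not tested, though DESeq2 called 356 of 17783 genes and the set-term fit 599 of 15136, against 56 in the fit reported. Leaving out a library gave 0 to 100 calls over all genes, with 2 libraries left in 1 group, so a gene's loss there says little. The median log2 fold change of the 38 ran from -0.00850 (without Cpd10 A) to 0.075 (without Cpd10 C). Estimates changed sign for 0 of the 38 with RLE size factors, without the filter and by DESeq2, for 1 by limma-voom, for 7 with the set term and for 5 to 8 without a library; none of these genes had an unadjusted p under 0.05. With the replicate letter as a block, 0 of the 38 and 0 of the related genes were called, where 49 of 15136 genes were called. Deviations from the group means correlated at 0.31 for A, 0.43 for B and -0.32 for C across genes, which are not independent replicates. Unlike letters within a set correlated as highly, at 0.46 for DMSO C with Cpd10 A and 0.41 for DMSO B with Cpd10 C. Pairs A and B each lie within a set and pair C crosses the sets, so these values cannot decide whether the letters pair the libraries. Genes near the floor, such as Me1, Scd3 and Elovl2, were limited by depth; its effect on other genes was not tested.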

Other observations

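Fatty acid oxidation, the route that breaks down what synthesis makes, was read from a list of 20 genes. Of these, 16 were tested and 0 were called by edgeR's quasi-likelihood test. By the same test 1 had an unadjusted p under 0.05 (6.25%, against 8.39% of all genes tested). The median log2 fold change was 0.10, with 11 of the 16 above 0. Hadha, a subunit of the mitochondrial trifunctional protein, was at 196, 180.2 and 183 CPM in DMSO and 246, 214 and 208 CPM in Cpd10, with no overlap between the groups (log2 fold change 0.26, SE 0.10, adjusted p = 0.543 by edgeR). Ppard, a nuclear receptor for fatty acids, was at 37.0 ± 5.91 and 46.5 ± 6.83 CPM (mean ± SD, n = 3, DMSO and Cpd10), and its 3 set 2 libraries lay above its 3 set 1 libraries. Ppara and Pparg had 0 counts in all 6 libraries.

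The list of glycerolipid and phospholipid genes held 26 genes, all tested, with 0 called by edgeR. An unadjusted edgeR p under 0.05 was found for 3 (11.5%, against 8.39% of all genes tested). The median log2 fold change was 0.02. Mgll, the monoacylglycerol lipase, was at 3.49, 4.60 and 2.60 CPM in DMSO and 20.2, 5.91 and 10.6 CPM in Cpd10. All 3 Cpd10 libraries lay above DMSO, with a wide spread among them (log2 fold change 1.78, 95% interval 0.71 to 2.85, adjusted p = 0.264 by edgeR). Agpat4, an acyltransferase of phospholipid synthesis, was at 30.8, 35.3 and 27.8 CPM in DMSO and 21.0, 27.0 and 21.8 CPM in Cpd10 (log2 fold change -0.43, adjusted p = 0.475 by edgeR, and -0.51 with an adjusted p of 0.0364 with the set term).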
